A study of Homo sapiens with 6 samples.

Results

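The 10 genes described here encode the human enzymes and cofactors that add or remove N6-methyladenosine (m6A) in RNA. They are the writers METTL3, METTL14, METTL16, WTAP, VIRMA, RBM15, RBM15B and ZC3H13, and the erasers ALKBH5 and FTO. They were chosen by name as a functional group, with earlier results of these data known, and all 10 were found among the 67026 genes of the count table. The tumours were xenografts of PC-3, a cell line established from a human prostate cancer metastasis, transduced with a lentiviral short hairpin RNA against VCAN (shVCAN, 3 tumours) or against GFP (shGFP, the knockdown control, 3 tumours). All cells of both groups had been selected with 2 μg/mL puromycin. In each host, 1200000 cells were placed under the skin with 50% Matrigel, and tumours were followed for 4 weeks; any further group of the experiment was not analysed here. The hosts were male NSG mice (NOD.Cg-Prkdcscid Il2rgtm1Wjl/SzJ), 4 to 5 weeks old, which lack mature lymphocytes but keep other host cells. Both the knockdown cells and the controls are derivatives of a single cell line, and the labels do not say how many hairpin sequences or clones were used.

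m6A is a common internal modification of messenger RNA. It is placed in the nucleus by a complex in which METTL3 is the catalytic subunit and METTL14 its RNA-binding partner. WTAP, VIRMA, ZC3H13 and the related proteins RBM15 and RBM15B bring that complex to its substrates, and METTL16 is a separate methyltransferase. The erasers ALKBH5 and FTO are iron- and oxoglutarate-dependent dioxygenases that remove the methyl group. The marks are read by YTH and IGF2BP proteins, which affect the splicing, stability and translation of the marked RNA.

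Upstream sequences are shown for METTL3, RBM15B and ALKBH5, which are among the 4 members that differed between the groups. They come from RefSeq promoter windows on GRCh38.p14, and 9 of the 10 members had an entry. Each starts 250 bases before the RefSeq start and leaves out the bases that GENCODE 29 annotates as an exon of the gene. For ALKBH5 all 250 bases remain, and they lie inside the gene as GENCODE 29 draws it, whose start is further upstream. The METTL3 stretch is chr14:21511376-21511590 on the minus strand, that of RBM15B is chr3:51391035-51391267 on the plus strand, and that of ALKBH5 is chr17:18183578-18183827 on the plus strand. Capitals mark ACGTG or GCGTG on either strand, the core of the hypoxia response element. These letters were searched because ALKBH5 is a known target of the hypoxia-inducible factor in human cells.
METTL3: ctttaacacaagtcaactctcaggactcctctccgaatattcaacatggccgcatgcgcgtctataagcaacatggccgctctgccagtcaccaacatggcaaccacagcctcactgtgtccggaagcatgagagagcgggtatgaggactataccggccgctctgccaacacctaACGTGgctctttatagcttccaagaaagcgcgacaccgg
RBM15B: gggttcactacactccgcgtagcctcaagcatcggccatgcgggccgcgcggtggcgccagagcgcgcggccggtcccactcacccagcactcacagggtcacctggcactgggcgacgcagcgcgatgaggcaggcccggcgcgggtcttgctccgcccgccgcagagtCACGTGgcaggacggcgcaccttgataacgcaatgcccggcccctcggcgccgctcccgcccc
ALKBH5: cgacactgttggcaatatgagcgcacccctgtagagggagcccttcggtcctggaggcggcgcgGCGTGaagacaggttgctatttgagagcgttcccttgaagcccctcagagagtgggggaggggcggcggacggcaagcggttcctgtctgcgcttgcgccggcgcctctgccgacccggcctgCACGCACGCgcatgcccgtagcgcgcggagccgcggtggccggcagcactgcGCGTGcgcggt
ALKBH5 had 4 matches over its 250 bases, and 43.2% of all 35116 RefSeq promoter windows hold at least 1 over that length. How many windows hold 4 was not counted. All 4 matches were GCGTG on 1 strand or the other, in a stretch with 70% GC. They begin 186, 63, 59 and 11 bases before the start, and the pair at 63 and 59 bases overlaps in a single run of capitals. METTL3 had 1 match over 215 bases, where 38.6% of the windows hold one. In RBM15B the 2 matches over 233 bases belong to 1 palindrome, CACGTG, which is also the E-box motif. Any ACGTG or GCGTG match was present in 40.9% of windows of that length, and CACGTG in 5.81%. A match of these letters is a description and not a measured binding site.

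Libraries held 11253058 to 13327617 counts, and levels are normalised read counts (CPM, a gene's counts over 1000000 counts of the TMM-scaled library), given as mean ± SD with n = 3 tumours per group. VCAN, the targeted gene, was at 3.66 ± 1.19 CPM in shVCAN tumours and 10.6 ± 0.809 CPM in shGFP tumours (log2 fold change −1.53, SE 0.207, edgeR adjusted p = 4.59e-07; exact two-sided permutation p = 0.1, the smallest that 3 against 3 allows). Of the PC-3 markers, KRT8, KRT18, KRT19, VIM and CD44 were at 157.1 CPM or more on average in both groups. Of 9 such markers 7 were tested, and 1 was higher and 2 lower at an edgeR adjusted p under 0.05. KRT18 was lower (log2 fold change −0.54, adjusted p = 5.51e-10) and CD44 higher (0.47, adjusted p = 2.96e-08). KRT8 was also lower (−0.19, adjusted p = 0.00463). That call was lost with library size only (adjusted p = 0.757) and with a correction for exonic length and GC content (adjusted p = 0.720). It was also lost without shGFP tumour 2 (adjusted p = 0.0999). Over all genes tested, 19.2% were called higher and 21.1% lower. The prostate marker KLK3 had 0 counts in every library. Messenger RNAs of the mitochondrial genome took 6.39% to 7.63% of counts in shVCAN and 13.3% to 16.2% in shGFP tumours. Over 5 fibroblast and pericyte markers, of which 3 were tested and 2 were lower, the summed level was 281 to 375 CPM in shVCAN and 660.0 to 748 CPM in shGFP tumours. Most of that sum was COL1A1, at 300.5 ± 48.9 CPM in shVCAN and 619 ± 37.5 CPM in shGFP tumours. DCN had 0 counts in every library but shGFP tumour 2, which had 5, and LUM and PDGFRB averaged at most 1.34 CPM in either group. The sum over 5 endothelial markers (4 tested, 3 lower) was 48.1 to 52.5 CPM in shVCAN and 86.7 to 88.3 CPM in shGFP tumours. Most of that sum was KDR (24.0 ± 1.45 CPM in shVCAN, 45.5 ± 2.63 CPM in shGFP) and PECAM1 (24.1 ± 0.989 CPM in shVCAN, 33.4 ± 1.13 CPM in shGFP). VWF averaged at most 0.241 CPM in either group and was not tested, and TEK was not called. For 5 leukocyte markers (3 tested, 1 lower) the sum was 1.67 to 3.06 CPM in shVCAN and 4.20 to 6.88 CPM in shGFP tumours, and the call, CD14, was lost without shGFP tumour 2 (adjusted p = 0.0562). For the 4 skeletal muscle markers with a row (3 tested, 2 lower) it was 132 to 198 CPM in shVCAN and 167 to 294 CPM in shGFP tumours. Both muscle calls were lost with the DESeq2 Wald test (adjusted p = 0.180 for ACTA1 and 0.137 for MYH1). Without shGFP tumour 3, MYH1 was not called (adjusted p = 0.0520) and the log2 fold change of ACTA1 was −0.27, in place of −0.51. For 5 adipocyte markers (2 tested, 1 higher, FABP4) it was 20.8 to 22.9 CPM in shVCAN and 5.39 to 9.16 CPM in shGFP tumours. Most of that sum was FABP4, at 18.1 ± 0.861 CPM in shVCAN and 4.45 ± 1.05 CPM in shGFP tumours. LPL was not called, and PLIN1 averaged at most 0.528 CPM in either group and was not tested. TNNT3 of muscle and ADIPOQ and LEP of adipocytes had 0 counts in every library. The part of host or other cells in the results on the m6A genes was not tested. In bulk tumours, fewer cells of a type and less RNA per cell cannot be told apart. The counts are of human genes in tumours from mouse hosts, and no removal of mouse reads is stated. Marker counts from host RNA and from PC-3 RNA can thus not be told apart either. The labels do not state that the numbered tumours came from separate mice, so p-values measure the spread between these samples, which may be technical.

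Among the m6A genes, 2 writers were higher in shVCAN tumours, the catalytic subunit METTL3 and the adaptor RBM15B, and both erasers, ALKBH5 and FTO, were lower. The other 6 writers were not called. All 10 genes passed the low-count filter, with 144 to 1835 counts in each tumour. At an adjusted p under 0.05, 4 of 10 members were called, beside 40.3% of the 16254 genes tested. By direction, 2 of 10 were higher (19.2% of all genes) and 2 of 10 were lower (21.1%). The CPM of the groups did not overlap in 4 of 10 members, beside 48.7% of all genes. The share of members called was thus near that of all genes. The members' median log2 fold change was −0.0079, and that of all genes tested was 0.0014. The called members had a median absolute log2 fold change of 0.42, and all genes called one of 0.46. None of the 4 reached an absolute log2 fold change of 1.

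**Figure D1:**
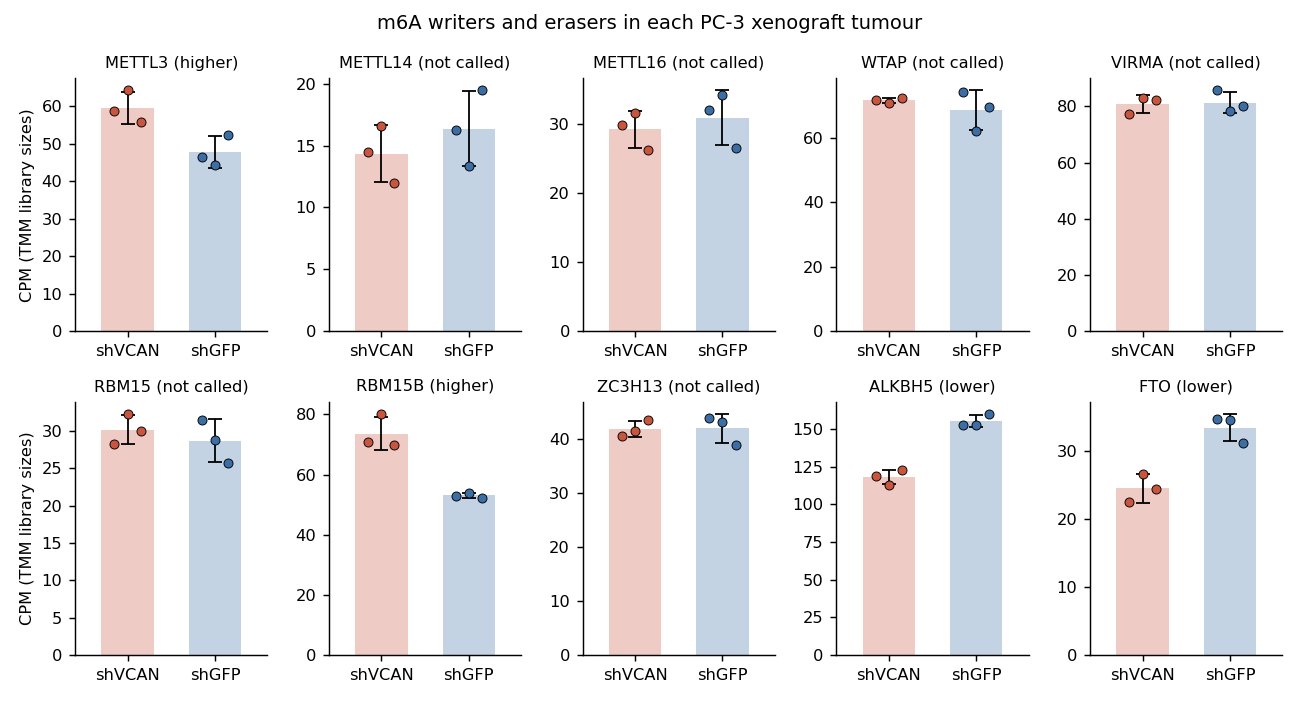
CPM of the 8 writers and 2 erasers in each tumour (points), with the group mean (bar) and SD (line), n = 3 tumours per group; each vertical axis starts at 0 and has its own range. The shVCAN points lie above every shGFP point for METTL3 and RBM15B and below every one for ALKBH5 and FTO, and the groups overlap in the other 6 genes.

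METTL3 (ENSG00000165819.12, chromosome 14, 21498133 to 21511375, minus strand, GRCh38) transfers the methyl group within the writer complex. It had 58.9, 64.3 and 55.8 CPM in shVCAN tumours 1, 2 and 3, against 46.5, 44.5 and 52.5 CPM in shGFP tumours 1, 2 and 3. Every shVCAN tumour was higher than every shGFP tumour, and the nearest values were those of shVCAN tumour 3 and shGFP tumour 3. The mean was 59.7 ± 4.28 CPM in shVCAN and 47.9 ± 4.16 CPM in shGFP tumours, a rise of 24.7% (log2 fold change 0.32, SE 0.0801, edgeR adjusted p = 0.00184). The 95% interval of the log2 fold change was 0.15 to 0.48. Over its exonic bases, 6.58% are shared with TOX4 on the opposite strand. TOX4 was lower in shVCAN tumours (51.7 ± 2.49 CPM, against 60.7 ± 2.50 CPM in shGFP; log2 fold change −0.23, adjusted p = 0.0129), the direction opposite to that of METTL3.

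METTL14 (ENSG00000145388.15, chromosome 4, 118685368 to 118715433) binds the substrate RNA and stabilises METTL3. It had 14.4, 16.6 and 11.97 CPM in shVCAN tumours, against 16.2, 13.4 and 19.5 CPM in shGFP tumours. The groups overlapped, and METTL14 varied most of the 10 genes between tumours of 1 group (coefficient of variation 18.6% in shGFP). Its log2 fold change was −0.19 with an interval of −0.48 to 0.10 (adjusted p = 0.314), which holds values on both sides of 0.

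METTL16 (ENSG00000127804.13, chromosome 17, 2405562 to 2511891, minus strand) methylates U6 small nuclear RNA and hairpins of the MAT2A messenger RNA, and so ties RNA methylation to the supply of the methyl donor. It averaged 29.2 ± 2.69 CPM in shVCAN and 30.9 ± 3.97 CPM in shGFP tumours (log2 fold change −0.08, interval −0.29 to 0.13, adjusted p = 0.579). MAT2A, its target and the gene of the methyl donor synthetase, averaged 271.9 ± 3.63 CPM in shVCAN and 265.7 ± 9.65 CPM in shGFP tumours (log2 fold change 0.033, adjusted p = 0.630). Neither gene of this pair was called with TMM scaling, and with library size only MAT2A was called higher (log2 fold change 0.20, adjusted p = 0.00252).

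RBM15B and RBM15 are related RNA-binding proteins that recruit the writer complex. RBM15B (ENSG00000259956.2, chromosome 3, 51391268 to 51397908) had 71.0, 80.1 and 69.8 CPM in shVCAN tumours, against 52.8, 54.0 and 52.3 CPM in shGFP tumours. The shGFP values lay close together, and each shVCAN value was above all of them. The rise was 38.9% (73.6 ± 5.62 CPM in shVCAN, 53.0 ± 0.850 CPM in shGFP; log2 fold change 0.47, SE 0.0730, interval 0.32 to 0.62, adjusted p = 4.17e-06). RBM15 (ENSG00000162775.16, chromosome 1, 110338506 to 110346681) averaged 30.2 ± 1.98 CPM in shVCAN and 28.7 ± 2.86 CPM in shGFP tumours and was not called (log2 fold change 0.07, interval −0.13 to 0.28, adjusted p = 0.602). RBM15B shares 1325 exonic bases, 19.95% of its length, with DCAF1 on the opposite strand. DCAF1 averaged 36.3 ± 2.70 CPM in shVCAN and 42.0 ± 1.52 CPM in shGFP tumours (log2 fold change −0.21, adjusted p = 0.0516). Whether reads were counted by strand is not stated in the labels, so reads in that stretch cannot be assigned to either gene.

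The other subunits of the writer complex, WTAP, VIRMA and ZC3H13, were not called. The adaptor WTAP (ENSG00000146457.16, chromosome 6) had 71.7, 71.0 and 72.5 CPM in shVCAN tumours, against 74.3, 62.1 and 69.6 CPM in shGFP tumours. Of its exonic bases, 6.81% are shared with SOD2 on the opposite strand, and reads there cannot be assigned to either gene. The shVCAN values of WTAP lay inside the range of the shGFP values. Its log2 fold change was 0.06 (interval −0.08 to 0.21, adjusted p = 0.523), and with libraries scaled by size alone it was called higher (0.23, adjusted p = 0.00996). VIRMA, the large scaffold of the complex, averaged 80.8 ± 3.11 CPM in shVCAN and 81.4 ± 3.81 CPM in shGFP tumours, with a log2 fold change of −0.011 (interval −0.15 to 0.12, adjusted p = 0.910). ZC3H13, which keeps the complex in the nucleus, averaged 41.9 ± 1.56 CPM in shVCAN and 42.0 ± 2.65 CPM in shGFP tumours, with a log2 fold change of −0.0043 (interval −0.17 to 0.16, adjusted p = 0.974). For VIRMA the interval reaches at most a change of 0.15 on the log2 scale in either direction, and for ZC3H13 and WTAP it reaches 0.17 and 0.21.

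ALKBH5 (ENSG00000091542.9, chromosome 17, 18183078 to 18209954) is a nuclear m6A demethylase. It had 118.6, 113.1 and 122.7 CPM in shVCAN tumours, against 152.8, 153.0 and 159.9 CPM in shGFP tumours. All shVCAN values were below all shGFP values, and the coefficient of variation was 4.09% in shVCAN and 2.61% in shGFP. The mean was 118.1 ± 4.83 CPM in shVCAN and 155.2 ± 4.05 CPM in shGFP tumours (log2 fold change −0.39, SE 0.0574, interval −0.51 to −0.28, adjusted p = 1.74e-06). An antisense transcript without a symbol shares 11.2% of its exonic bases.

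FTO (ENSG00000140718.21, chromosome 16, 53701692 to 54158512) removes m6A and the related cap-adjacent mark m6Am, and its locus is known from studies of body weight. It had 22.5, 26.7 and 24.4 CPM in shVCAN tumours, against 34.7, 34.6 and 31.2 CPM in shGFP tumours. All shVCAN values were below all shGFP values. The mean was 24.5 ± 2.09 CPM in shVCAN and 33.5 ± 1.97 CPM in shGFP tumours (log2 fold change −0.45, SE 0.0993, interval −0.65 to −0.25, adjusted p = 0.000500). When counts were corrected for exonic length and GC content, the log2 fold change of FTO was −0.28 (adjusted p = 0.0169), and the call was kept.

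**Figure D2:**
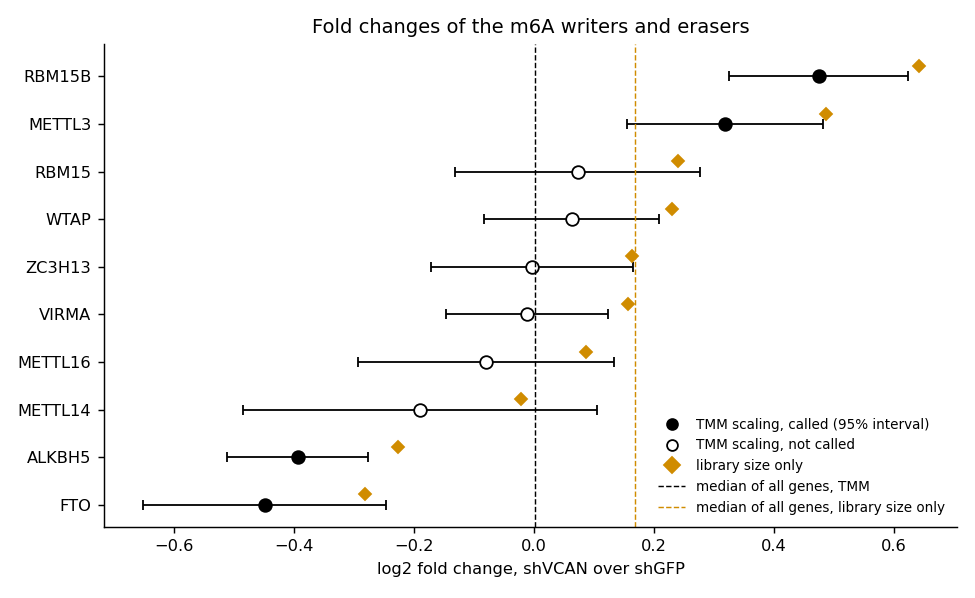
Log2 fold changes (shVCAN over shGFP) of the 10 genes with TMM scaling (circles, filled where the adjusted p is under 0.05, bars are 95% intervals) and with library size only (diamonds); dashed lines mark the median of all genes tested under each scaling. RBM15B and METTL3 lie above 0 and ALKBH5 and FTO below it under both scalings, while library size only moves the median of all genes to 0.17.

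The direction of the 4 called genes was the same with TMM, DESeq2 size factors, upper quartile factors and library size only. Library size alone moved the median of all genes tested to 0.17 and that of the members to 0.16. Under that scaling RBM15B and METTL3 had log2 fold changes of 0.64 and 0.49, and ALKBH5 and FTO had −0.23 (adjusted p = 0.00253) and −0.28 (adjusted p = 0.0223). Leaving the mitochondrial genome out of the counts gave −0.39 for ALKBH5 and 0.32 for METTL3, the same as with it to the second decimal.

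Ratios of partner genes within a tumour do not depend on how libraries are scaled, and 3 such pairs were compared. The log2 ratio of METTL14 over METTL3, in counts per kb of annotated exons, was −2.25, −2.17 and −2.44 in shVCAN tumours, against −1.74, −1.95 and −1.65 in shGFP tumours. It was lower in every shVCAN tumour, by 0.51 on average (means −2.29 ± 0.138 in shVCAN and −1.78 ± 0.155 in shGFP). The log2 ratio of RBM15B over RBM15 was 0.82, 0.80 and 0.71 in shVCAN tumours, against 0.24, 0.40 and 0.51 in shGFP tumours. That ratio was higher in every shVCAN tumour, with a difference of 0.39 between the means. The exact two-sided permutation p was 0.1 for both pairs, the smallest that 3 against 3 tumours can give (adjusted over the 3 pairs p = 0.15). For the erasers, the log2 ratio of ALKBH5 over FTO was 5.14, 4.83 and 5.07 in shVCAN tumours, against 4.88, 4.89 and 5.10 in shGFP tumours. The eraser ratios overlapped, with a difference of 0.06 between the means (exact permutation p = 0.9, adjusted p = 0.9).

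**Figure D3:**
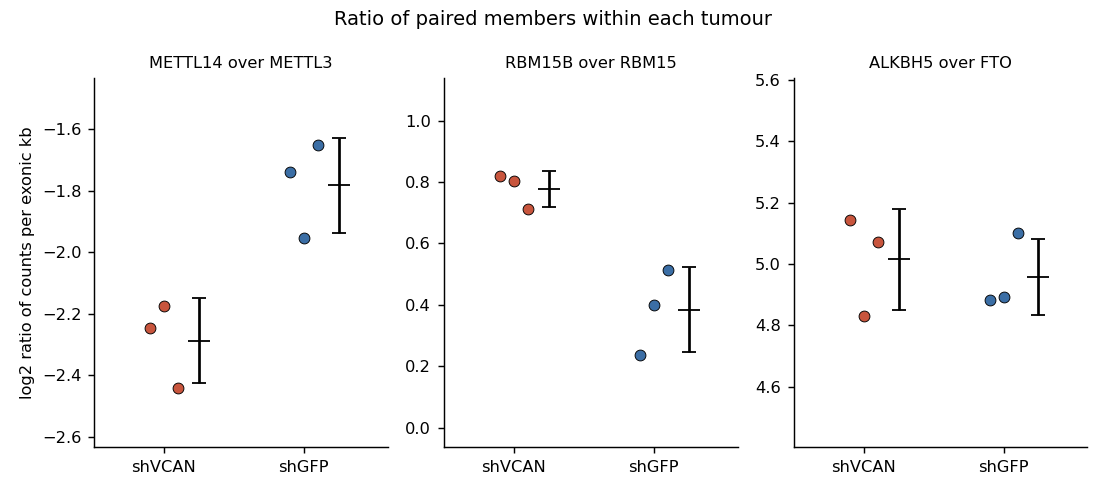
Log2 ratio of counts per kb of annotated exons for 3 pairs of genes in each tumour (points), with the group mean and SD beside them, n = 3 per group; each panel spans the same height on the log2 scale. The shVCAN points lie below all shGFP points for METTL14 over METTL3 and above them for RBM15B over RBM15, and the groups overlap for ALKBH5 over FTO.

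Levels of different genes were compared per kb of annotated exons. ALKBH5 was the most abundant of the 10 in both groups, at 37.0 ± 1.51 CPM per kb in shVCAN and 48.7 ± 1.27 CPM per kb in shGFP tumours. FTO was the least abundant, at 1.15 ± 0.0976 CPM per kb in shVCAN and 1.57 ± 0.0921 CPM per kb in shGFP tumours. Among the writers WTAP led, at 11.2 ± 0.121 CPM per kb in shVCAN and 10.7 ± 0.960 CPM per kb in shGFP tumours. In shVCAN tumours the order continued with RBM15B, METTL3, VIRMA, RBM15, ZC3H13, METTL16 and METTL14, and the ranges of WTAP and RBM15B, and of RBM15B and METTL3, overlapped. In shGFP tumours the order continued with METTL3, RBM15B, VIRMA, RBM15, ZC3H13, METTL16 and METTL14. There the ranges of METTL3 and RBM15B, of RBM15B and VIRMA, and of ZC3H13 and METTL16 overlapped. METTL14 stood at 2.09 ± 0.337 CPM per kb in shVCAN and 2.38 ± 0.443 CPM per kb in shGFP tumours, below its partner METTL3 at 10.1 ± 0.727 CPM per kb in shVCAN and 8.12 ± 0.706 CPM per kb in shGFP tumours. The order depends on the length used. Per kb of the longest coding transcript METTL3 ranked above WTAP, at 29.6 ± 2.13 CPM per kb in shVCAN and 23.7 ± 2.07 CPM per kb in shGFP tumours, since that transcript of METTL3 has 2015 bases and its annotated exons cover 5894. ALKBH5 was highest by both lengths, while METTL14 and FTO, the lowest pair, overlapped in both groups by the transcript length.

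**Figure D4:**
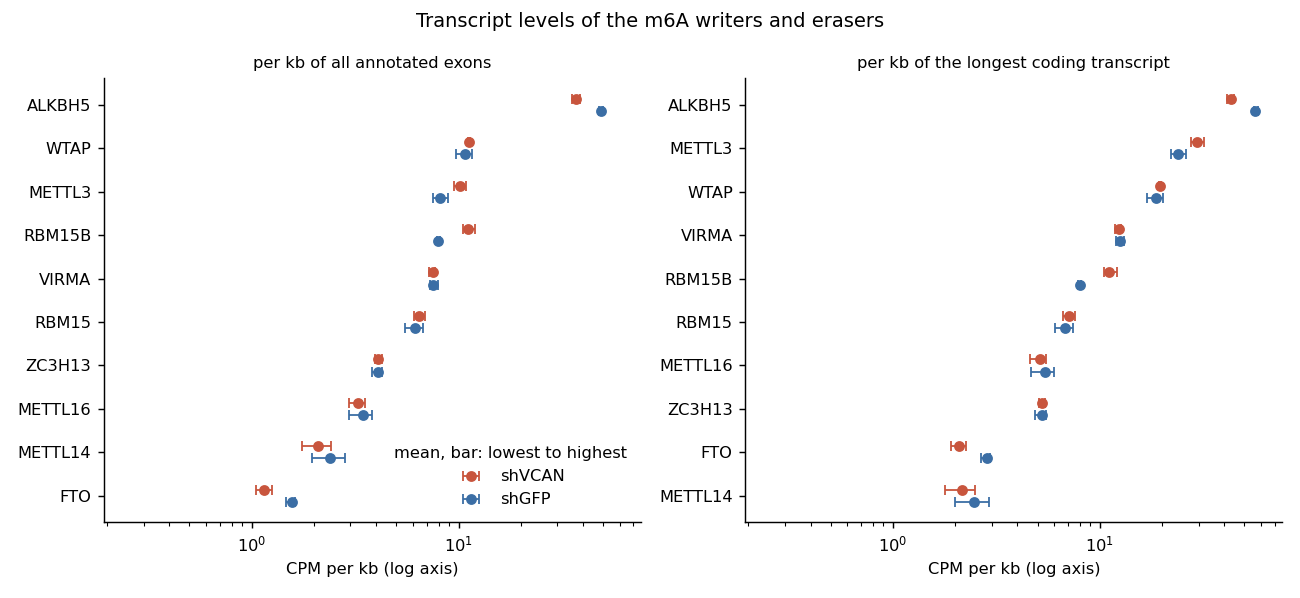
CPM per kb of the 10 genes on a log axis, divided by the length of all annotated exons (left) or of the longest coding transcript (right); points are group means and bars run from the lowest to the highest of the 3 tumours. ALKBH5 is highest on both scales, at 37.0 CPM per exonic kb in shVCAN and 48.7 in shGFP tumours, and METTL3 is placed higher by the transcript length.

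Over the 6 tumours, the pattern of RBM15B in log2 CPM was most like that of SERPINB7, MELTF and PVT1 among 9963 other genes of at least 10 CPM on average (Pearson r of 0.999 for each). The pattern of ALKBH5 was most like that of ZNF503, ROCK2 and UGGT1 (r of 0.999, 0.998 and 0.997). These values describe 6 points that share 2 groups and their libraries, and 438 genes had an r over 0.95 with RBM15B and 805 with ALKBH5. UGGT1 averaged 101.4 ± 2.75 CPM in shVCAN and 135.0 ± 4.70 CPM in shGFP tumours, and MELTF averaged 158.8 ± 17.9 CPM in shVCAN and 103.6 ± 2.52 CPM in shGFP tumours.

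Of 6 genes for other components and enzymes of adenosine N6-methylation, 2 were higher, 1 was lower and 3 were not called, with a median log2 fold change of 0.11. Beside these counts, 19.2% of all genes tested were called higher and 21.1% lower. The ubiquitin ligase CBLL1 (HAKAI), which belongs to the writer complex with WTAP, averaged 24.4 ± 2.49 CPM in shVCAN and 31.4 ± 2.996 CPM in shGFP tumours (log2 fold change −0.37, adjusted p = 0.00549). That call was lost with library size only (adjusted p = 0.123) and without shGFP tumour 2 (adjusted p = 0.0548). METTL5 and its stabilising partner TRMT112, which methylate ribosomal RNA, were higher. TRMT112 had 292.6 ± 7.78 CPM in shVCAN and 216.8 ± 5.01 CPM in shGFP tumours (log2 fold change 0.43, adjusted p = 2.92e-08). METTL5 had 36.6 ± 2.42 CPM in shVCAN and 28.1 ± 4.44 CPM in shGFP tumours (log2 fold change 0.39, adjusted p = 0.00331), a call lost with the length and GC offset (0.14, adjusted p = 0.252) and without shGFP tumour 1 (adjusted p = 0.0512). PCIF1, the writer of m6Am beside the cap, was not called (log2 fold change 0.12, interval −0.038 to 0.28, adjusted p = 0.227), but was with library size only (adjusted p = 0.0039).

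Of 12 genes for the supply and recycling of the methyl donor S-adenosylmethionine, 11 were tested, of which 3 were higher, 2 were lower and 6 were not called (median log2 fold change 0.0094). Among all genes tested, 19.2% were called higher and 21.1% lower. AHCY, which breaks down the S-adenosylhomocysteine that methyltransferases release and that inhibits them, had 276.1 ± 9.02 CPM in shVCAN and 166.3 ± 3.52 CPM in shGFP tumours (log2 fold change 0.73, SE 0.0519, adjusted p = 1.15e-12). Its relative AHCYL1 was lower, at 100.4 ± 0.568 CPM in shVCAN and 122.4 ± 11.1 CPM in shGFP tumours (adjusted p = 0.000614). MTHFD1 of the folate cycle was lower as well, at 100.4 ± 6.25 CPM in shVCAN and 121.2 ± 4.11 CPM in shGFP tumours (adjusted p = 0.000734). Both of these calls were lost with library size only (adjusted p = 0.149 for AHCYL1 and 0.209 for MTHFD1), and the log2 fold change of MTHFD1, −0.27 with TMM scaling, was −0.15 with the length and GC offset. MAT2B, the regulatory subunit of the synthetase, was higher (log2 fold change 0.28, adjusted p = 0.00522), a call lost without shVCAN tumour 3 (adjusted p = 0.0821) and, with a log2 fold change of 0.16, under the length and GC offset (adjusted p = 0.0520).

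Of 8 YTH and IGF2BP readers, 7 were tested, of which 0 were higher, 3 were lower and 4 were not called (median log2 fold change −0.058). Beside these 3 of 7, 40.3% of all genes tested were called, 19.2% higher and 21.1% lower. The readers called were IGF2BP1, IGF2BP3 and YTHDF1. YTHDF1, which promotes translation of marked RNA, had 104.5 ± 1.65 CPM in shVCAN and 125.0 ± 1.81 CPM in shGFP tumours, and IGF2BP3, a stabiliser of marked RNA, had 41.6 ± 2.90 CPM in shVCAN and 54.5 ± 1.20 CPM in shGFP tumours. IGF2BP1, its relative, was low, with 18, 15 and 16 counts in shVCAN tumours, against 55, 27 and 42 counts in shGFP tumours (log2 fold change −1.63, SE 0.343, adjusted p = 0.000297). The YTHDF1 call was lost with library size only (adjusted p = 0.238), and the log2 fold change of IGF2BP3, −0.39 with TMM scaling, was then −0.22.

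**Figure D5:**
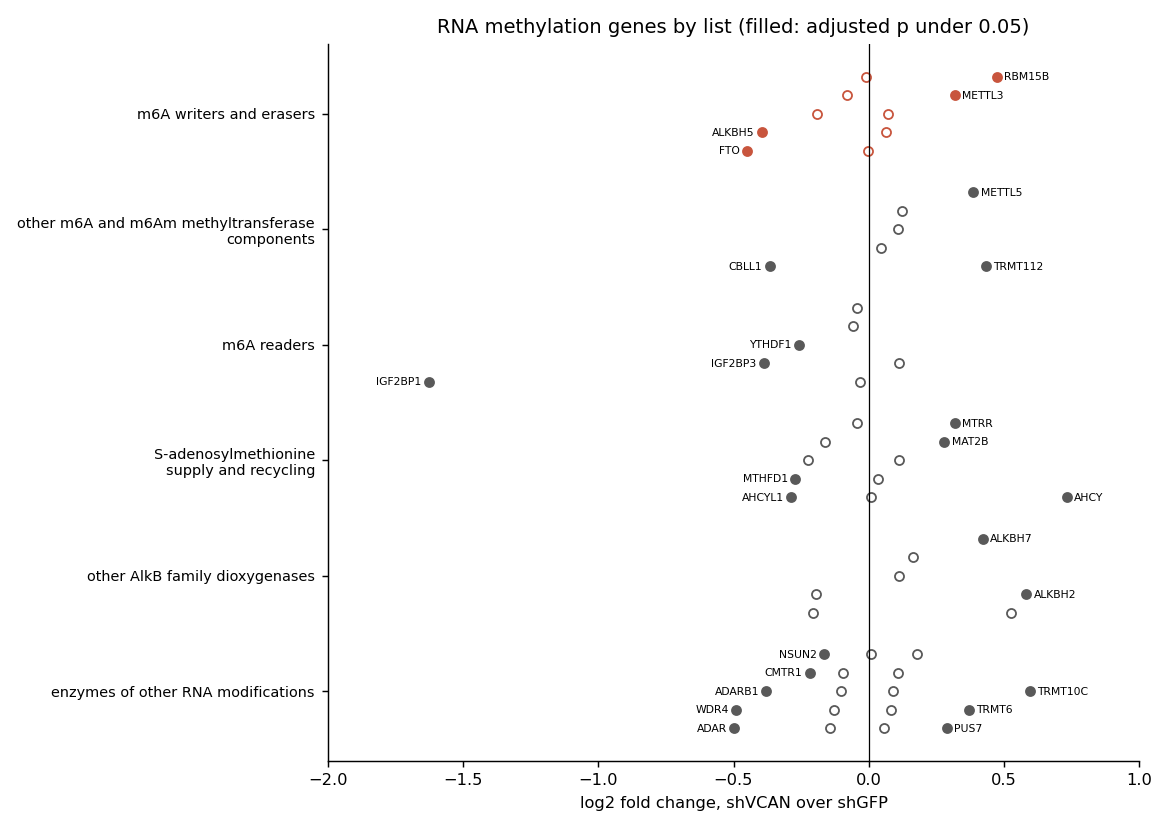
Log2 fold changes (shVCAN over shGFP) of the tested genes of 6 lists of RNA methylation and modification genes; each point is a gene, filled and named where the edgeR adjusted p is under 0.05, and heights within a list carry no value. Called genes lie on both sides of 0 in the writer and eraser list, where 2 of 10 are higher and 2 of 10 lower. The 3 called readers, of 7 tested, lie below 0, beside 40.3% of all genes called and 21.1% called lower.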

How the data were processed

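RNA from xenograft tumours was sequenced as paired reads of 150 bases, per the labels' protocols. Trim Galore, STAR, DESeq2 and hg38 stand in the submitters' processing notes, with no version or order. The authors deposited raw whole-number counts per gene with Ensembl identifiers. No label or header names the counting program, a strand setting or a removal of mouse reads.

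The table's 67071 rows lost 45 second copies of pseudoautosomal genes with 0 counts, which left 67026. The 10 members and VCAN were matched through a symbol table. Positions and exon lengths came from GENCODE 29 (GRCh38, the assembly also called hg38). The main test was the quasi-likelihood test in edgeR 4.0.16 (R 4.3.3). It used TMM factors and group as the only term, on the 16254 genes that filterByExpr kept. Genes were called at a Benjamini-Hochberg adjusted p under 0.05 over all genes tested. Standard errors (SE) are the size of the log2 fold change over the root of F, and intervals are 95%. The script was tested on simulated data. Exact two-sided permutation tests used SciPy 1.17.1.

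The counts of calls over all genes and members, the members' median and the fold changes of the members and 41 other genes were recomputed with size factors of DESeq2, with upper quartile factors, with library size only, counts without the mitochondrial genome, no filter, a filter of 1 CPM in 3 tumours, limma-voom (limma 3.58.1), the DESeq2 1.42.0 Wald test, the replicate number as a block, a trend correction by length and GC of exons (from genes at 4 CPM or above), each tumour left out, and 2 other thresholds. A level per kb of the longest coding transcript was added after seeing the data. The members and lists were chosen with earlier results of these data known. The genes named are all members, VCAN, up to 4 called genes of each other list with the smallest adjusted p, MAT2A, PCIF1, CBLL1, the PC-3 markers and the 3 genes most alike the most strongly called member in each direction. DCAF1, TOX4, YTHDC1 and the cell type markers DCN, LUM, PDGFRB, VWF, TEK, TNNT3, ADIPOQ, LEP, LPL and PLIN1 were named after their values were seen. SOD2 is named only for the exonic bases it shares with WTAP. The pair ratios were recomputed with the block, with the length and GC correction and without each tumour. The other lists' counts and medians, summed marker levels, correlations, TOX4 and DCAF1 were not recomputed. Some of the PC-3 markers are not reported here. Depth was 11253058 to 13327617 counts per library, and reads without molecular identifiers are not independent molecules.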

Additional observations from a re-analysis of the deposited data

How the results depend on the processing

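METTL3, RBM15B, ALKBH5 and FTO kept their direction and their call under all 16 refits. In the main fit their calls also held at an adjusted p under 0.01. Over the refits the largest adjusted p was 0.0146 for METTL3, 0.0223 for FTO, 0.00253 for ALKBH5 and 6.17e-05 for RBM15B. Of the 160 values of the 10 members over the refits, 159 kept their side of the 0.05 threshold and 1 did not, the call of WTAP with library size only. Of the 656 values of the other 41 named genes tested, 636 did, 16 lost their call, 3 gained one, and VIM, not called in the main comparison, had a log2 fold change of 0.13 with library size only (adjusted p = 0.0189). With the threshold also at a log2 fold change of 1 in size, 0 members were higher and 0 lower, and 450 genes were higher and 435 lower in all. With library size only 5228 genes were higher and 1890 lower, so 73.4% of calls were higher in place of 47.7%. The members' median log2 fold change was 0.031 with upper quartile factors, 0.16 with library size only, and 0.039 with the length and GC offset. Without single tumours it ran from −0.032 to 0.035. The difference in the ALKBH5 over FTO ratio was −0.15 with the length and GC offset, and without single tumours it ran from −0.0073 (without shVCAN tumour 1) to 0.15. The cause was not tested. By the longest coding transcript, 6 of 10 members in shVCAN and 2 of 10 in shGFP tumours kept their place in the order of levels per kb. Tumours of the same number did not deviate together (correlations of 0.0176, 0.0157 and −0.0271), and those of different numbers ran from −0.0365 to 0.0208. The labels give no pairing, and values near 0 cannot show that the samples were unpaired. With the replicate block 3083 genes were higher and 3428 lower, and the same 2 and 2 counts of members were called. METTL14 had the widest interval of the 10 members, with a log2 fold change between −0.48 and 0.10.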

Other observations

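The erasers ALKBH5 and FTO belong to the AlkB family of dioxygenases, and 7 other members of that family were measured. Of these, 2 were higher in shVCAN tumours, 0 were lower and 5 were not called (median log2 fold change 0.16). The shares over all genes tested were 19.2% higher and 21.1% lower. ALKBH2, a DNA repair enzyme, averaged 26.2 ± 2.43 CPM in shVCAN and 17.5 ± 0.499 CPM in shGFP tumours (log2 fold change 0.58, edgeR adjusted p = 8.67e-05). ALKBH7, a mitochondrial member, averaged 88.7 ± 6.80 CPM in shVCAN and 66.2 ± 7.02 CPM in shGFP tumours (log2 fold change 0.42, adjusted p = 3.83e-05).

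Of 18 enzymes of other RNA modifications, 3 were higher, 5 were lower and 10 were not called (median log2 fold change −0.044). Again, 19.2% of all genes tested were called higher and 21.1% lower. TRMT10C, a subunit of the mitochondrial ribonuclease P that also methylates transfer RNA, averaged 78.5 ± 2.92 CPM in shVCAN and 51.9 ± 2.05 CPM in shGFP tumours (log2 fold change 0.60, adjusted p = 4.23e-08). With the length and GC offset its log2 fold change was 0.25 (adjusted p = 0.00165). The adenosine deaminases that edit double-stranded RNA were both lower. ADAR averaged 189.9 ± 2.43 CPM in shVCAN and 268.0 ± 4.93 CPM in shGFP tumours (log2 fold change −0.50, adjusted p = 2.23e-09), and ADARB1 averaged 42.8 ± 3.14 CPM in shVCAN and 55.7 ± 1.33 CPM in shGFP tumours (log2 fold change −0.38, adjusted p = 0.000233). For ADARB1 the log2 fold change was −0.20 with that offset and −0.21 with library size only, and the call was kept in both. WDR4, the partner of METTL1 in methylating guanosine of transfer RNA, averaged 24.3 ± 0.990 CPM in shVCAN and 34.1 ± 1.11 CPM in shGFP tumours (log2 fold change −0.49, adjusted p = 0.000111), and its log2 fold change was −0.32 with library size only. The nuclear m6A reader YTHDC1 was listed with 1 count in shVCAN tumour 1 and 0 counts in the other 5 libraries, so it was not tested. This gene is widely expressed in human cells, and how its reads were counted could not be worked out, so these counts are not read as absence of its RNA.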
